A study of Mus musculus with 3 samples.

Results

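Nicotinamide adenine dinucleotide (NAD) is the electron carrier of oxidative metabolism and the substrate of enzymes that consume it. Cells rebuild it from nicotinamide through Nampt and the adenylyl transferases Nmnat1 and Nmnat3, or from nicotinic acid through Naprt. Nicotinamide leaves this cycle when Nnmt methylates it with S-adenosylmethionine, a step known from white fat and liver, while the kinase Nadk turns NAD into NADP. The sirtuins Sirt1 and Sirt3, the ADP-ribosyl transferase Parp1 and the glycohydrolase Cd38 split NAD and release nicotinamide.

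These 10 genes were followed in mouse brown fat, which burns fuel to make heat. They were chosen by name, and every non-control probe that carries a RefSeq accession of one of them was taken, which gave 11 probes of 55681 on the array. All 11 were well above background in both channels on all 3 arrays, so 10 of the 19347 genes and unnamed features tested belong to the set. Nnmt stood out in earlier results of the same arrays, and the other members were proposed with those results in view. The ratios of all 10 are therefore given as a description, and nothing is supported by the fact that a member passed or missed a threshold.

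Each of 3 two-colour arrays held total RNA of an Ad-Lkb1 sample (Cy5, strain named C57BL/6J) and of a wild-type sample (Cy3, strain named C57BL/6), from male littermates that were 10 weeks old and ate regular chow. The samples of a genotype were biological replicates, and how many animals gave a sample is not stated. The series title names the deletion of liver kinase B1, an activator of AMP-activated protein kinase. The labels spell out neither the allele nor the promoter that drives the deletion, so the cells in which the gene was deleted are not given. Dye, strain name and genotype run together on every array and cannot be told apart. In whole tissue, fewer cells of a type and less RNA per cell cannot be told apart either.

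Well above background were 46.7% to 51.3% of the spots, depending on array and dye, and no spot was saturated. Stk11, which encodes the kinase, fell in Ad-Lkb1 tissue, with a mean log2 ratio of -1.20 (SD 0.056 over 3 arrays, limma, adjusted p = 0.0106). Ucp1, the uncoupling protein that defines the tissue, rose 2.78-fold (limma, adjusted p = 0.0115). The size of this rise depended on the processing. The mean log2 ratio of Ucp1 was 1.48, but 0.80 with median centring and 1.12 with the scanner software's signals. Of the features tested, 924 passed the threshold of an adjusted p of 0.05 as higher in Ad-Lkb1 and 756 as lower, which is 4.78% and 3.91% of them, or 8.68% in either direction. Median centring in place of loess turned this split to 388 higher and 9707 lower, since it moved the median of all features to -0.42. Without array 1 or array 2, limma called 0 features (3933 and 3565 passed 0.05 before adjustment), and 2028 were called when array 3 was left out. All p-values rest on the spread between 3 pairs. Array 3 stood further from array 1 than array 2 did, with correlations of the ratios over features (not replicates of each other) of r = 0.36 and r = 0.73.

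Nnmt was the member with the highest ratio. Its normalized intensity was 4051, 2913 and 2609 in the Ad-Lkb1 samples of arrays 1 to 3, against 499, 716 and 331 in the wild-type samples. The lowest Ad-Lkb1 sample lay above the highest wild-type sample, and the spread was wider in wild type, where the highest value was 2.16 times the lowest, than in Ad-Lkb1, where it was 1.55 times. The log2 ratios were 3.02, 2.03 and 2.98, with a mean of 2.67 ± 0.56 (SD, n = 3 arrays), a 6.38-fold difference. Only 15 of the 19347 features had a higher mean ratio, which places Nnmt at percentile 99.9. The smaller ratio of array 2 came with the highest wild-type level of the 3. Over the 10 other ways of processing the arrays, the mean log2 ratio lay between 1.97 (median centring) and 3.00 (without array 2).

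**Figure D1:**
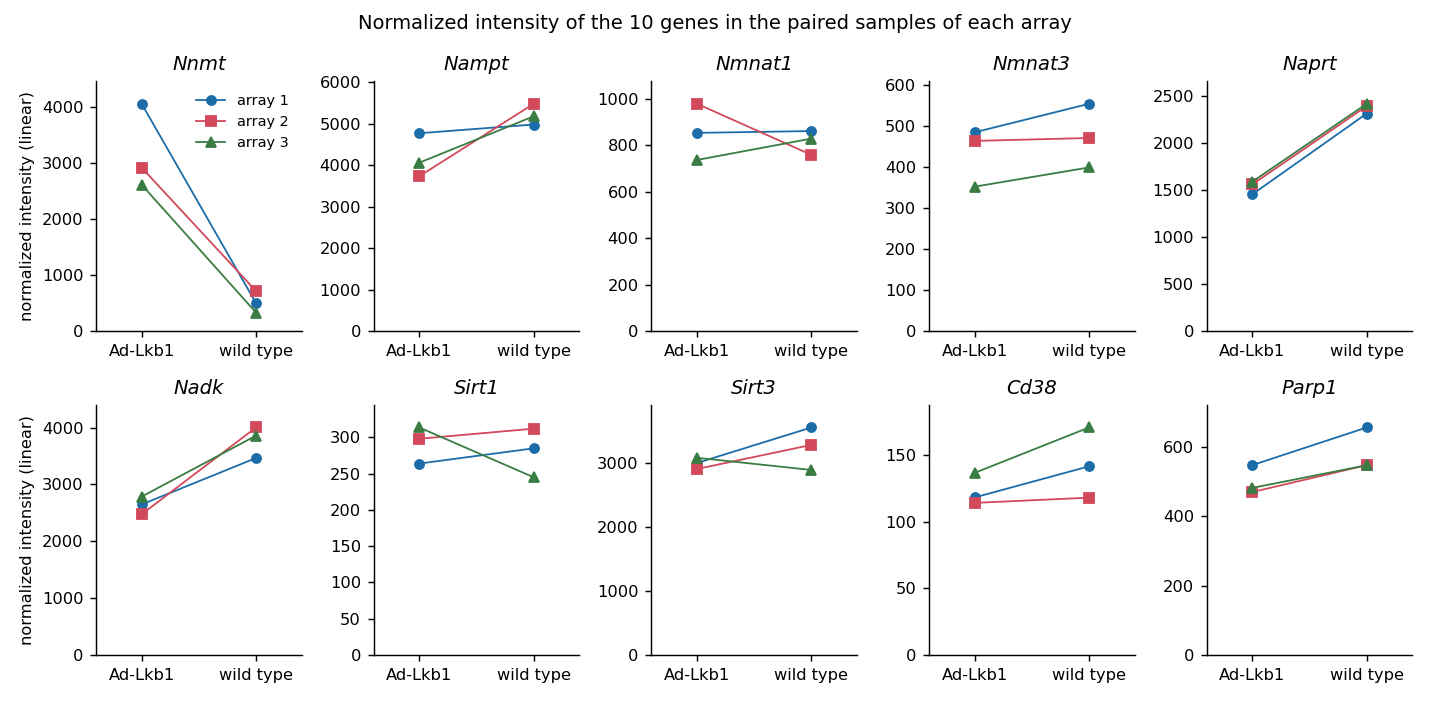
Normalized intensity (linear axis from 0, after loess and quantile normalization of mean intensities) of each gene in the Ad-Lkb1 and wild-type samples, with a line joining the pair of each array. The 3 Ad-Lkb1 samples sit between 2609 and 4051 for Nnmt, all above the wild-type samples, and for Naprt all Ad-Lkb1 samples sit below all wild-type samples.

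Among the enzymes that build NAD, the lowest ratio was that of Naprt, which attaches ribose phosphate to nicotinic acid. Naprt had intensities of 1453, 1559 and 1588 in Ad-Lkb1 tissue and 2311, 2390 and 2414 in wild-type tissue. Samples of a genotype lay close together, and the groups did not overlap. The log2 ratios of -0.67, -0.62 and -0.60 had a mean of -0.63 and an SD of 0.034, which is at percentile 5.06 of the SDs of all features, and the level was 1.55-fold higher in wild type. Over the other ways of processing, the mean ratio lay between -1.34 (median centring) and -0.59.

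Nampt, the rate-limiting enzyme of the nicotinamide route, had ratios that differed much more between arrays. Its intensity was 4775, 3738 and 4064 in Ad-Lkb1 tissue and 4985, 5485 and 5183 in wild-type tissue. The groups did not overlap, although on array 1 the samples of the pair were nearly equal. The log2 ratios were -0.06, -0.55 and -0.35 (mean -0.32 ± 0.25 SD).

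The adenylyl transferases, which act in both routes, showed no common direction. Nmnat1, the nuclear enzyme, had 853, 978 and 736 in Ad-Lkb1 tissue and 860, 758 and 828 in wild-type tissue. Its log2 ratio was -0.013, 0.37 and -0.17 on arrays 1 to 3, with a mean of 0.061 ± 0.28 (SD). Nmnat3, the mitochondrial enzyme, had 484, 463 and 352 in Ad-Lkb1 tissue and 554, 470 and 399 in wild-type tissue, with a mean log2 ratio of -0.13 ± 0.095 (SD). For Nmnat3 the arrays differed more than the pairs did, since both samples of array 3 were the lowest of their genotype. The groups overlapped for both genes.

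Nadk phosphorylates NAD to NADP in the cytosol, and it was the member measured by 2 probes. The brighter probe had 2648, 2475 and 2786 in Ad-Lkb1 tissue and 3465, 4003 and 3859 in wild-type tissue. The groups did not overlap. Its log2 ratios were -0.39, -0.69 and -0.47 (mean -0.52 ± 0.16 SD), a level 1.43-fold higher in wild type. The dimmer probe had 1390, 1287 and 1243 in Ad-Lkb1 tissue and 1492, 1678 and 1543 in wild-type tissue, a mean log2 ratio of -0.27 ± 0.15 (SD). Both probes thus had ratios below 0 on every array, and the mean of the probes was -0.39.

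RefSeq (GRCm38.p6) gives Nadk 2 starts. The promoter of the downstream start is printed because Nadk had the second lowest ratio of the members and this window holds an E-box, the letters CACGTG, read alike on both strands and known as a binding motif of clock, MYC and related factors. The window runs from 250 bases before to 50 after the start, and capitals mark the motif, which begins 40 bases before the start. The upstream promoter of Macrod1, the gene with the lowest ratio among the further NAD genes, is set beside it, with the motif 92 bases before the start. The 8 members with an entry have 11 promoters, of which 3 held the motif (1 each of Nadk, Sirt1 and Parp1), and 7.15% of 32851 mouse promoters of the same length did. Of the 10 members and further genes called lower in Ad-Lkb1 tissue, 7 had an entry, while Naprt, Nadk2 and Nudt12 had none. The motif was held by 2 of the 7 genes, in 3 of their 12 promoters. Among all genes with an entry, 2187 of 27025 held it. A match is a description of the letters in the window only.
Nadk, chr4:155563565-155563864, plus strand: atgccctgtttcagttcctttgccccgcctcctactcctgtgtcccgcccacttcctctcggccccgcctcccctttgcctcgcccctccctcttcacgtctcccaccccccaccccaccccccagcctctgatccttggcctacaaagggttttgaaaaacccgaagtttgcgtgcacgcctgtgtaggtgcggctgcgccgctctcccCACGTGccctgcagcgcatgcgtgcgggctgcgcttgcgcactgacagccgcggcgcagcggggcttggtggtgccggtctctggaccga
Macrod1, chr19:7056518-7056817, plus strand: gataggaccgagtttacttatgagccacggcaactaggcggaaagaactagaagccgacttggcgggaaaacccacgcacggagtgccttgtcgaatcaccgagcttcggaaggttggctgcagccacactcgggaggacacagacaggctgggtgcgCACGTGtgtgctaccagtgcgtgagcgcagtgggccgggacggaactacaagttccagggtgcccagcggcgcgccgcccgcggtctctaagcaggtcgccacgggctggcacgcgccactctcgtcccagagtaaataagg

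The enzymes that consume NAD had small ratios. Sirt1, a nuclear deacetylase, had 264, 298 and 314 in Ad-Lkb1 tissue and 285, 312 and 245 in wild-type tissue, with log2 ratios of -0.11, -0.066 and 0.36. Sirt3, the main mitochondrial deacetylase, had 2994, 2900 and 3075 in Ad-Lkb1 tissue and 3548, 3276 and 2885 in wild-type tissue, with log2 ratios of -0.25, -0.18 and 0.092. For both sirtuins, array 3 had the opposite sign to the other arrays and the groups overlapped.

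Parp1, which marks DNA breaks with poly-ADP-ribose, had 547, 469 and 481 in Ad-Lkb1 tissue and 656, 547 and 547 in wild-type tissue. Every array put it slightly lower in Ad-Lkb1 (log2 ratios -0.26, -0.22 and -0.18, mean -0.22 ± 0.039 SD), while the samples of the genotypes just overlapped. Cd38, an ectoenzyme known from immune cells, had 118, 114 and 137 in Ad-Lkb1 tissue and 142, 118 and 171 in wild-type tissue. Its log2 ratios were -0.26, -0.049 and -0.32 (mean -0.21 ± 0.14 SD). Cd38 was the member closest to background, with raw signals averaging 3.42 times background in Ad-Lkb1 and 4.31 times in wild type, and the offset of 50 pulls its ratio towards 0. With the scanner software's own signals the mean was -0.41.

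Set side by side, 1 member (Nnmt) lay past the threshold of the fit over all features as higher and 2 (Naprt and Nadk) as lower. The background is 4.78% and 3.91% of all features, and nothing is read from these counts, because the members were proposed with this contrast in view. The members had a median log2 ratio of -0.17, against -0.0097 over all features. Ratios had 1 sign on all 3 arrays for 7 of the 10 members (51.8% of all features), and the intensities of the genotypes did not overlap for 4 (36.5% of all features). These 4 were Nnmt, Nampt, Naprt and Nadk. Nadk stayed past the threshold under 1 of 10 other ways of processing, which was median centring. Naprt stayed past it under 6, median centring among them. With median centring, Nnmt was the only member with a ratio above 0, and the other 9 ran from -1.34 to -0.51. Measured from the median of all features under that centring, Nnmt stood at 2.39, Naprt at -0.92, Nadk at -0.80 and Nampt at -0.61.

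**Figure D2:**
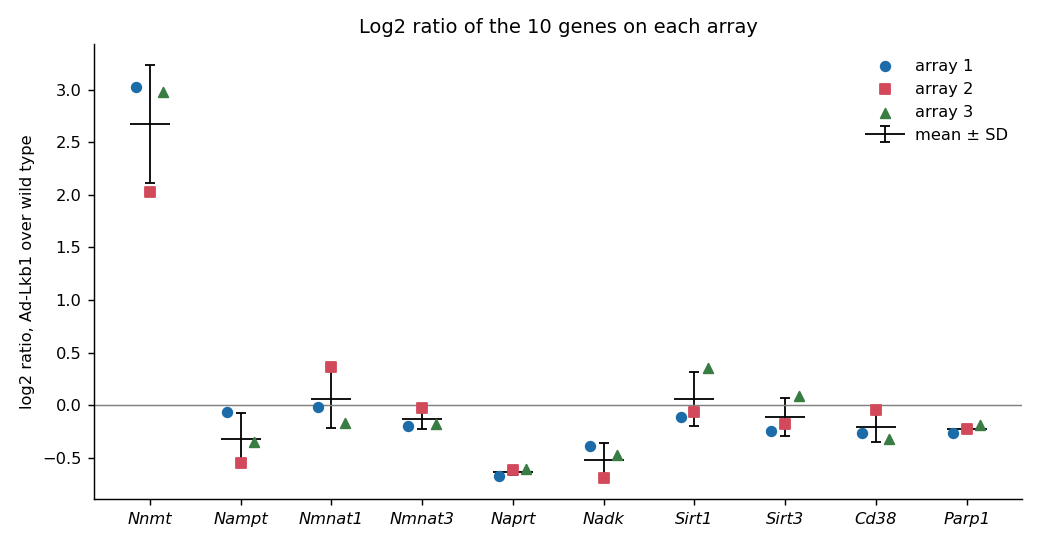
Ad-Lkb1 to wild-type log2 ratio (vertical axis) of the 10 genes on arrays 1 to 3 (symbols), with the mean and SD (black). Nnmt lies between 2.03 and 3.02 on every array, and Naprt between -0.67 and -0.60.

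The neighbouring steps of NAD and methyl donor metabolism were read from a list of 73 further genes, of which 71 were on the array and 56 passed the filter on dim probes. Of these 56, 4 rose and 8 fell, 21.4% against 8.68% of all features, and their median log2 ratio was -0.036 against -0.0097. The list was chosen with earlier results of these data known, so nothing is read from these counts. All 4 that rose belonged to the methyl donor and polyamine groups (1 and 3), as did Ahcyl2 and Paox among those that fell. The count depended on the processing. With the scanner software's signals 2 were higher and 1 lower, and of the 12 genes called only Nadk2, Sat1 and Srm stayed past the threshold. With median centring 0 were higher and 35 lower. Where adjusted p-values follow, they come from limma over all 19347 features.

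**Figure D3:**
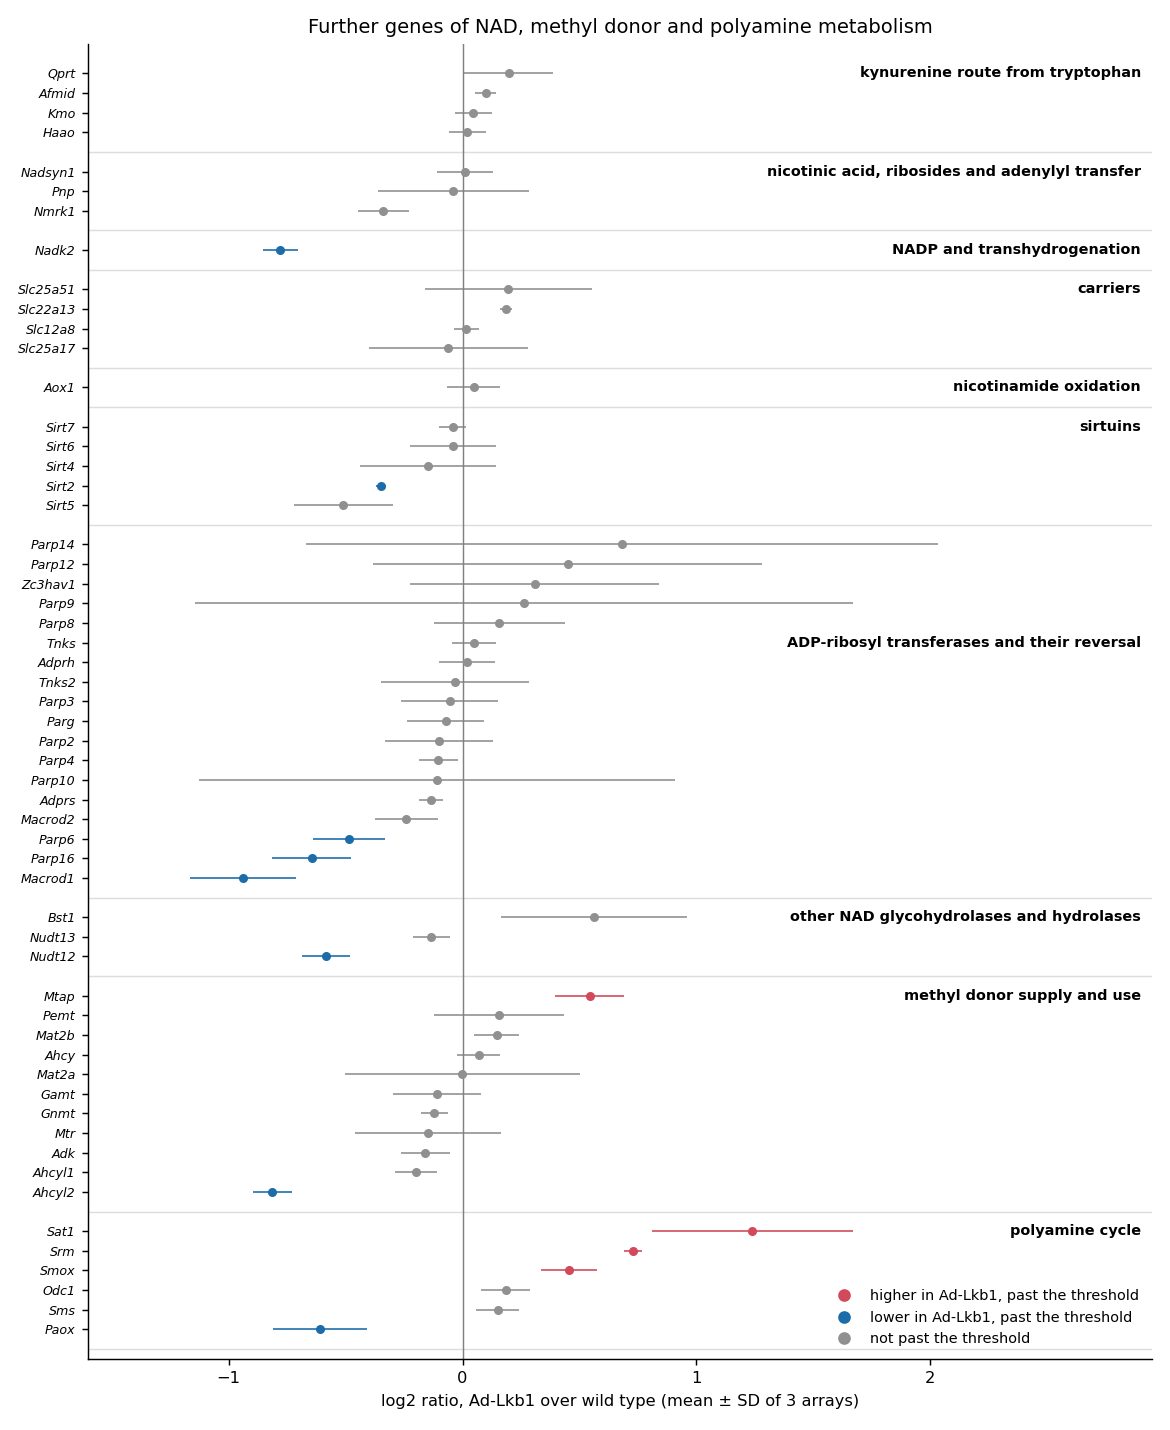
Mean Ad-Lkb1 to wild-type log2 ratio and its SD over 3 arrays (horizontal axis) for 56 further genes in 10 groups, coloured by their side of the threshold. The polyamine group holds 3 of the 4 genes that rose, and Parp9, Parp14 and Parp10 have the widest bars.

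The other NAD kinase and a hydrolase of NADH fell in Ad-Lkb1 tissue. Nadk2, the mitochondrial NAD kinase, had a mean log2 ratio of -0.78 (SD 0.074, 3 arrays, adjusted p = 0.0166), with intensities of 304, 301 and 317 in Ad-Lkb1 tissue and 503, 548 and 532 in wild-type tissue. The groups were well apart. Nudt12, a peroxisomal hydrolase of NADH, fell by 0.58 (adjusted p = 0.0274). With the scanner software's signals Nudt12 had -0.72 (adjusted p = 0.0673). Bst1, a relative of Cd38 known from myeloid and stromal cells, had log2 ratios of 0.91, 0.64 and 0.13 on arrays 1 to 3 (adjusted p = 0.111). Its wild-type signal passed the background test on 1 array of 3, and the size of its ratio turned on the background correction (mean 0.56, but 1.26 with the smaller offset and 3.05 with the software's signals). Bst1 passed the threshold without array 3 (0.78, adjusted p = 0.0269), and it is named after its values were seen.

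No gene of the kynurenine route, which makes NAD from tryptophan, passed the threshold (0 of 4 measured, with a median log2 ratio of 0.072, and 5 others were not above background in either genotype on all arrays). Afmid had 0.099 (adjusted p = 0.405). Qprt, which makes the nucleotide of this route, had no wild-type signal well above background on any array, so its level there is only a bound, and its ratio depended on the offset (mean log2 0.20, but 0.49 with an offset of 10 and 1.62 with the software's signals, none past the threshold). Nicotinamide riboside kinase Nmrk1 had -0.34 (adjusted p = 0.070) and Pnp, which splits ribosides, had -0.040 (adjusted p = 0.886). Carriers of NAD and its precursors had 0 of 4 past the threshold, with Slc22a13 at 0.19 and the mitochondrial NAD carrier Slc25a51 at 0.20 (adjusted p = 0.152 and 0.462), and the aldehyde oxidase Aox1 had 0.047 (adjusted p = 0.745).

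The 5 further sirtuins all had ratios below 0, and 1 of them passed. Sirt2, a mainly cytosolic deacetylase, fell by 0.35 on the log2 scale with little spread between arrays (SD 0.021, adjusted p = 0.0487). Leaving out 1 array moved the ratio only between -0.36 and -0.34. The call was nevertheless lost whichever array was left out (adjusted p from 0.0886 to 0.221). It was also lost without background subtraction, with the smaller offset (10) and with the software's signals or value table. In all, 3 of 10 other ways of processing kept it. The group's median was -0.15.

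Of 18 genes of ADP-ribosylation, 3 fell and 0 rose, with a median of -0.063. Macrod1, a mitochondrial enzyme that removes ADP-ribose, had log2 ratios of -1.12, -1.01 and -0.69 (mean -0.94 ± 0.23 SD, adjusted p = 0.0236). The transferase Parp16 of the endoplasmic reticulum fell by 0.65 (adjusted p = 0.0311) and Parp6 by 0.49 (adjusted p = 0.0464). The other probe of either gene had a smaller ratio of the same sign (-0.27 for Parp16 and -0.17 for Parp6), and with the mean of the probes neither passed (adjusted p = 0.0501 and 0.0592). Of 10 other ways of processing, 4 kept the call of Parp16 and only 1, median centring, kept that of Parp6.

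Over the 18 genes, 12 had ratios of more than 1 sign on the 3 arrays, and 6 of these were above 0 on arrays 1 and 2 and below 0 on array 3. Of these 6, the 5 known to respond to interferon are named here after their values were seen, and the other was Parp8 (0.35, 0.29 and -0.16). The other 6 had other orders, such as Parp2 with -0.076, 0.12 and -0.34. Parp14 had log2 ratios of 1.79, 1.08 and -0.82 on arrays 1 to 3, and Parp9 had 1.25, 0.88 and -1.35. Parp12 had 1.01, 0.84 and -0.50, Parp10 had 0.58, 0.37 and -1.28, and the antiviral Zc3hav1 had 0.81, 0.37 and -0.25. None passed the threshold over the 3 arrays (adjusted p from 0.414 to 0.889). Without array 3, Parp9, Parp12 and Parp14 passed (log2 ratios 1.07, 0.93 and 1.44). The 11 measured genes of the interferon response list had medians of 3.04, 2.70 and 0.34 on arrays 1 to 3. Their summed intensity was 16655, 10605 and 7066 in Ad-Lkb1 tissue and 1733, 1503 and 6432 in wild-type tissue, so array 3 held both the lowest Ad-Lkb1 and the highest wild-type value. Of these 11 genes, 2 passed the threshold as higher and 0 as lower, and 7 had ratios of 1 sign on all 3 arrays. Isg15 alone had 3.37, 3.04 and -0.35. The part of this response in the ratios of the ADP-ribosylation genes was not tested. Parp1 differed little between arrays, as given above.

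**Figure D4:**
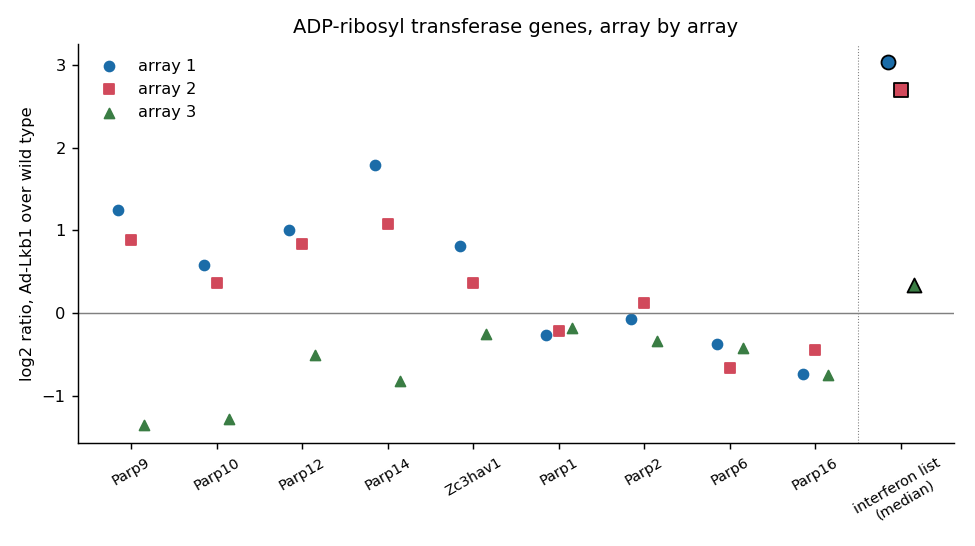
Ad-Lkb1 to wild-type log2 ratio (vertical axis) on arrays 1 to 3 for 9 genes of the ADP-ribosyl transferase family. The median of 11 interferon response genes is at the right. For Parp9, Parp10, Parp12, Parp14 and Zc3hav1 arrays 1 and 2 lie above 0 and array 3 below it, whereas Parp1 lies between -0.26 and -0.18.

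Nnmt takes its methyl group from S-adenosylmethionine. Of 11 measured genes that supply or use this donor, 1 rose and 1 fell, with a median of -0.11. Ahcyl2, a relative of the enzyme that clears the demethylated donor, fell, with a mean log2 ratio of -0.81 ± 0.083 SD (adjusted p = 0.0159), and its other probe had -0.67. Mtap, which recycles the by-product of polyamine synthesis to methionine, rose by 0.54 (SD 0.15, adjusted p = 0.0372). Mtap had 0.12 with median centring, not past the threshold.

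The polyamine cycle draws on the same donor, and of its 6 measured genes 3 rose and 1 fell. Sat1, which acetylates spermidine and spermine for export or breakdown, had log2 ratios of 0.77, 1.33 and 1.61 and rose by 1.24 (SD 0.43, adjusted p = 0.0310). The spermidine synthase Srm rose by 0.73 (SD 0.038, adjusted p = 0.0166) and the spermine oxidase Smox by 0.45 (SD 0.12, adjusted p = 0.0432), and the other probe of either gene had a like ratio (0.70 and 0.40). Paox, which oxidizes acetylated polyamines, fell by 0.61 (SD 0.20, adjusted p = 0.0395), a call that 3 of 10 other ways of processing kept (adjusted p = 0.0537 without background subtraction and 0.134 with the software's signals). Odc1, the entry enzyme, had 0.18 and the spermine synthase Sms had 0.15 (adjusted p = 0.201 and 0.269), both named to complete the group. The probes of Sms differed in sign, since its other probes had -0.20 and 0.10, while those of Odc1 had 0.26 and 0.23. With median centring Sat1 had 0.54 and Srm 0.039, neither past the threshold, and Smox had -0.051.

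Nnmt is also counted among the genes enriched in white fat. Of 6 other measured genes of that list, 2 rose and 0 fell, with a median of -0.043. The synuclein gene Sncg rose by 2.10 on the log2 scale (adjusted p = 0.0106) and the natriuretic peptide clearance receptor Npr3 by 1.64 (adjusted p = 0.0176), while the hormone gene Retn had -0.77 (adjusted p = 0.108). The list's summed intensity was 9886 to 10117 in Ad-Lkb1 tissue and 5529 to 5850 in wild-type tissue, a difference that rested on Sncg. Without Sncg the sums were 3966, 3453 and 2657 in Ad-Lkb1 tissue and 3918, 4294 and 4118 in wild-type tissue. These sums were lower in Ad-Lkb1 on arrays 2 and 3, and most of each was Retn. Retn had 2941, 2082 and 1461 in Ad-Lkb1 tissue and 3320, 3755 and 3548 in wild-type tissue. Npr3 had 769, 1119 and 958 against 326, 284 and 296, higher in Ad-Lkb1 on every array.

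Markers of several cell types moved with the genotype beside Nnmt. Of 11 measured macrophage markers, 7 rose and 0 fell, with medians of 1.80, 2.04 and 1.04 on the arrays, and their summed intensity was 7574 to 8855 in Ad-Lkb1 tissue and 2765 to 4138 in wild-type tissue. Cd68 rose by 2.24 (adjusted p = 0.0230) and Csf1r by 0.95 (adjusted p = 0.0477), though other probes of Csf1r had 0.55 and 0.14, and Itgam had -0.093 (adjusted p = 0.576). Of 12 fibroblast and progenitor markers, 5 rose and 0 fell, with a summed intensity of 30784 to 37516 in Ad-Lkb1 tissue and 16393 to 23192 in wild-type tissue. Col3a1 rose by 1.17 and Col1a2 by 1.01 (adjusted p = 0.0106 and 0.0343), and Dcn had 0.82 (adjusted p = 0.0902). With median centring Col1a2 had 0.30, Csf1r 0.24 and Dcn 0.12, none past the threshold, while Col3a1 (0.46) and Cd68 (1.55) passed. With the software's signals Col1a2 and Csf1r did not pass either (adjusted p = 0.0556 and 0.0703). Of 12 brown adipocyte markers, 5 rose and 0 fell, with a summed intensity of 506488 to 558209 in Ad-Lkb1 tissue and 297412 to 350716 in wild-type tissue. Most of these sums came from Ucp1, Cidea, Cox7a1, Cox8b and Fabp4, and the abundant Fabp4 had 0.48 (adjusted p = 0.0729). Prdm16, Adipoq and Zic1 had mean log2 ratios below 0 (-0.33, -0.13 and -0.11), none past the threshold. The part of these cells in the ratio of Nnmt was not tested.

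The remaining lists did not move with the genotype in 1 direction. Of 8 hepatocyte markers 2 were measured, both not past the threshold, and 6, among them the albumin gene, did not pass the filter on dim probes. Lymphocyte markers had 0 of 5 past the threshold, with a summed intensity of 890 to 1012 in Ad-Lkb1 tissue and 994 to 1215 in wild-type tissue. Skeletal muscle markers swung between arrays, with medians of -4.30, 2.43 and 4.70 on arrays 1 to 3. Their summed intensity was 3399, 21652 and 22155 in Ad-Lkb1 tissue and 18795, 5695 and 3141 in wild-type tissue, so on each array 1 sample of the pair was high. The part of muscle in the ratios was not tested.

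The genes with the pattern nearest to Nnmt were found by the Euclidean distance between log2 ratios over the 3 arrays among 13146 other genes with a symbol. The rule named S100g, a calcium-binding protein gene, but its wild-type signal was not well above background on any array. Its wild-type level is therefore only a bound, and the measured difference was 6.57-fold. Its place in the order has no meaning, since its mean log2 ratio was 2.72 here and 6.01 with the software's signals (2.94 for Nnmt). With median centring the ratio of S100g was 2.28 (1.97 for Nnmt), and its other probe had 2.58. Serpina1a and Serpina1c, which encode protease inhibitors, lay at 0.83 and 0.94. They belong to a family of close copies, so which copy their probes measured is uncertain. The secreted phospholipase gene Pla2g2e lay at 0.89 and Wfdc21 at 0.97. The likeness held for 1 probe each of Serpina1a and Pla2g2e, whose other probes had mean log2 ratios of 1.17 and 1.36. These 5 were picked for their likeness to Nnmt on the same 3 arrays, so their ratios are a description too.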

How the data were processed

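RNA of whole brown adipose tissue, 3 Ad-Lkb1 and 3 wild-type samples, was measured on 3 two-colour Agilent arrays from 1 slide. Per the file headers, the deposited scanner files hold median spot and background intensity values and processed intensity values that the authors' software had background-subtracted and dye-normalized. The software was Agilent Feature Extraction 11.5, per the submitters' processing notes. The deposited value table holds its log10 ratio of Cy5 over Cy3, matched by feature number (r = 1.0, largest difference 0.0049, each column's median 0), and it is exactly 0 for 26.8% to 27.8% of features.

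With limma 3.58.1 in R 4.3.3, median signals were corrected with normexp (offset 50) and with loess, which was fitted without control spots. Control spots and spots flagged as outliers were left out afterwards, when spots were averaged to probes. The 3 incomplete features of 2 arrays had no ratio there. Kept were 25052 of 55681 probes, those with a channel whose signal passed the software's background test on every array. Symbols came from RefSeq (GRCm38.p6) by accession (28026 of 29796 matched), and a gene was its brightest kept probe. Ratios were tested against 0 (lmFit, eBayes) with Benjamini-Hochberg adjustment over 19347 features. Intensities per channel are after loess and Aquantile. The procedure was tested on simulated data.

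Members and lists were chosen with earlier results of these data known. Named were all members, pathway genes past the threshold (or the 2 with the smallest p of a group), bright markers, and the 5 patterns nearest to Nnmt.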

Additional observations from a re-analysis of the deposited data

How the results depend on the processing

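Another background correction, signal source or centring gave 50 values of the members, of which 17 moved by more than the SD over arrays, 10 of them with median centring. That centring put 1 member past the threshold as higher and 9 as lower, and Nmnat1 and Sirt1 at -0.63 and -0.51. The number of members called lower was 1 without background subtraction, with an offset of 10, without the filter and with the mean of probes, and 0 with the software's signals or the deposited value table. Leaving out 1 array gave 0 to 1 members higher and 0 to 1 lower. The further genes of NAD, methyl donor and polyamine metabolism then had 0 to 7 higher and 0 to 6 lower. All features had 0 to 1317 higher and 0 to 711 lower. Counts of 0 arose without array 1 or 2. There 3 to 4 members, 14 to 15 of the further genes and 3565 to 3933 features had an unadjusted p under 0.05. Among all features, 532 were higher and 282 lower with the software's signals, 533 and 283 with the value table, 388 and 9707 with median centring, and 541 and 492 without the filter. The further genes had 2 higher (Sat1 and Srm, of the polyamine group) and 1 lower (Nadk2) with the software's signals or the value table. They had 0 and 35 with median centring, 1 and 5 without the filter, and 5 lower without background subtraction or with an offset of 10. Directions turned with median centring for Afmid (-0.039), Slc22a13 (-0.078), Slc25a51 (-0.51), Aox1 (-0.67), Smox (-0.051), Fabp4 (-0.19), Parp9 (-0.39), Zc3hav1 (-0.0072), Odc1 (-0.51) and Sms (-0.49). Pnp had 0.0144 with the software's signals and 0.0136 with the value table, and Itgam 0.019 with the mean of probes. Leaving out 1 array, the ratio ran from -0.091 to 0.18 for Nmnat1, from -0.088 to 0.15 for Sirt1, from -0.18 to 0.14 for Pnp, from -0.0014 to 0.11 for Aox1, from -0.15 to 0.010 for Itgam, from -0.23 to 1.07 for Parp9 and from -0.45 to 0.47 for Parp10. The cause of these shifts was not tested. The test of ratios within arrays is itself the paired analysis, so a further fit with a replicate block was not possible. With 3 arrays precision is limited throughout, and the offset understates folds of dim genes such as Cd38.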
